A study of Mus musculus with 6 samples.

Results

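Transcripts of 36 genes that signal in, or mark the lineages of, the developing hair follicle were compared between Get1 -/- and Get1 +/+ skin. They were chosen by name, as the array rows whose platform symbol is one of the 36, from 18193 genes with a probe set of their own on the array. The samples are back skin, excised from one region in every animal at embryonic day 18.5, of 3 Get1 +/+ and 3 Get1 -/- mice, with labelled cRNA made from the total RNA of each mouse hybridised to its own oligonucleotide array. Per the labels Get1 is also called Grhl3, which encodes a grainyhead-like transcription factor of the epidermis, and the comparison asks which transcripts differ when it is lost. The labels give no strain, sex, litter or design of the mutant allele. The tissue is whole skin, so follicles, epidermis, dermis and muscle contribute to each value, and fewer cells of a type cannot be told apart from less RNA per cell.

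Hair follicles form when the embryonic epidermis and the dermis below it exchange signals. Wnt and Eda signals start the placode, Sonic hedgehog drives its downgrowth, and Bmp ligands and their antagonists set spacing and later shaft differentiation. Some Fgf ligands, among them Fgf7 and Fgf10, pass from the dermis to the epithelium. Before birth the first back skin follicles already hold a dermal papilla, a proliferating matrix and the first sheath layers, which are marked by different transcription factors and keratins. Of 18 sheath and shaft marker genes listed for this purpose, 16 were on the array and 11 passed the filter on dim probe sets. Krt25, an inner root sheath keratin, read 2274, 5315 and 11289 in Get1 +/+ and 3928, 3337 and 1962 in Get1 -/- skin (replicates 1, 2 and 3, an order kept in all such lists).

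All values are array signals in arbitrary units, scaled to the same mean on every array, and each gene is represented by its probe set with the highest mean. Differences are Get1 -/- minus Get1 +/+ on the log2 scale ± standard error (SE) from limma, in which 1 stands for a doubling. P-values were adjusted by Benjamini-Hochberg over all 11387 genes whose mean log2 signal reached the median of the array (a signal of 137). The Grhl3 probe set read 478, 934 and 670.1 in Get1 +/+ and 246, 413 and 379.7 in Get1 -/- skin. The genotypes did not overlap, and the difference was -0.98 ± 0.28 (adjusted p = 0.497). The labels do not say which part of the gene is missing, so this value does not check the genotype.

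Of the 36 genes 31 passed the filter and were tested, and 0 passed an adjusted p of 0.05 in limma, against 5 of all 11387 genes (0.0439%, or 0.0263% higher and 0.0176% lower in Get1 -/- skin). Of these 5, 3 were higher and 2 lower, or 3 and 1 after quantile normalization. At an unadjusted p under 0.05 there were 3, namely Krt75 with lower values and Fgf7 and Tbx18 with higher values in Get1 -/- skin, against 8.18% of all genes (4.29% lower and 3.89% higher). This count was 7 without Get1 +/+ replicate 1, 2 without Get1 -/- replicate 2, and 1 without Get1 +/+ replicate 2 or 3 or Get1 -/- replicate 3. The genotypes did not overlap in 4 of the 31, with lower values for Wnt10a, Ctnnb1 and Bmp4 and higher values for Fgf7, and in 12.0% of all genes (6.78% lower and 5.20% higher). Both shares, 9.68% and 12.9% of the members, are near these background shares. Lower means in Get1 -/- skin were found for 21 of the 31, or 67.7%, against 48.7% of all genes. The median difference of the members was -0.15, beside 0.0076 over all genes tested. When all kept probe sets of a gene were averaged instead of taking the brightest, it was -0.26, beside -0.0053.

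**Figure D1:**
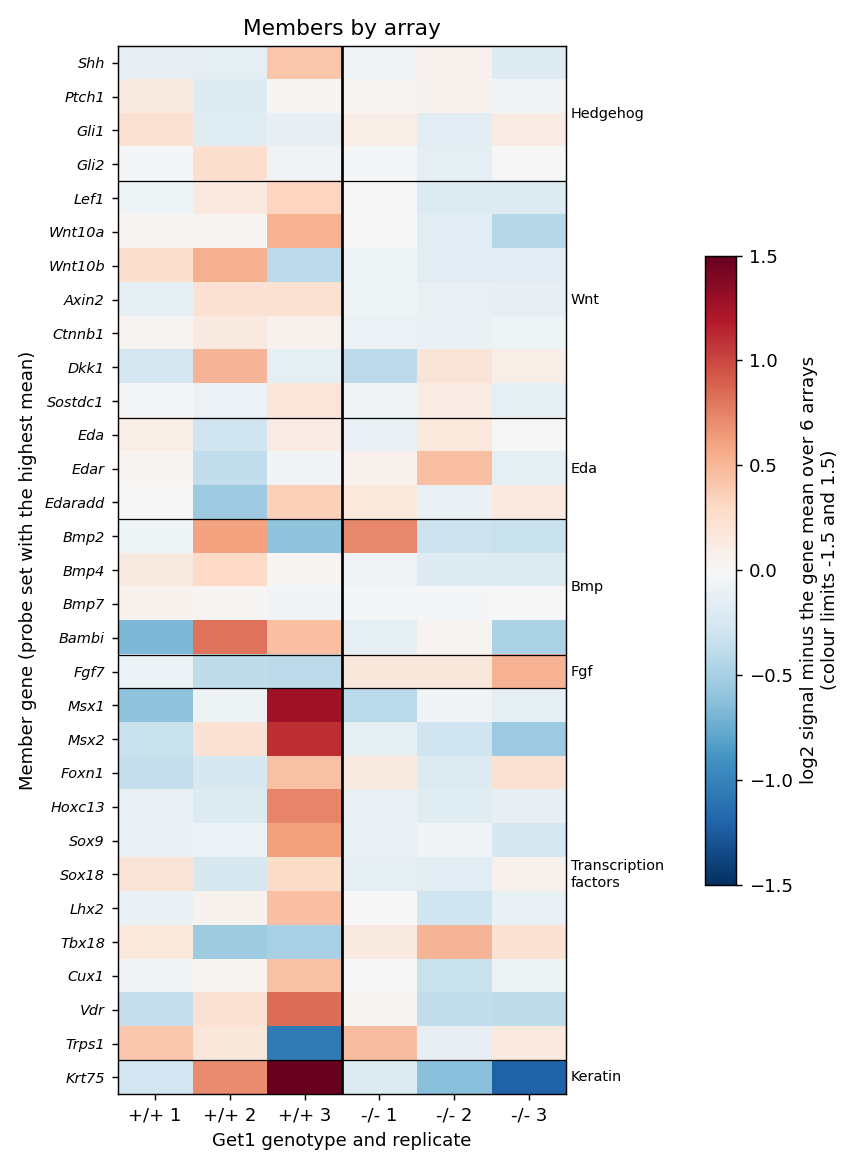
Log2 signal of each of the 31 tested genes (rows, grouped by pathway) on each of the 6 arrays (columns, genotype and replicate), minus that gene's mean over the 6 arrays, with red for higher and blue for lower. The column of Get1 +/+ replicate 3 is the reddest among the transcription factors and Krt75, and Fgf7 is the one row with all 3 Get1 -/- arrays above all 3 Get1 +/+ arrays.

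By their brightest probe sets the 4 Hedgehog genes had differences between -0.11 and 0.050, and 0 of them passed. Shh, the ligand made by the follicle epithelium, read 2895, 2872 and 4226 in Get1 +/+ and 3066, 3308 and 2768 in Get1 -/- skin. Get1 +/+ replicate 3 was the highest, the other 5 arrays lay between 2768 and 3308, and the genotypes overlapped (-0.11 ± 0.18, 95% interval -0.51 to 0.29). The other kept Shh probe set was dimmer and read 218, 268 and 201 against 137, 221 and 145, also with overlap (-0.48). Ptch1, the receptor of Shh and itself a target of the pathway, read 10763, 8549.7 and 9901 against 10019.8, 10211 and 9555, and all Get1 -/- values lay inside the range of Get1 +/+ (0.034 ± 0.12, interval -0.24 to 0.31). Gli1, a transcription factor whose level follows pathway activity, had means of 1603 ± 260.3 (SD, n = 3) and 1651 ± 173 (0.050 ± 0.17, interval -0.33 to 0.42). Gli2, the main activator downstream of Smoothened, had means of 2991 ± 353 and 2759 ± 145 (-0.11 ± 0.14, interval -0.43 to 0.20). Adjusted p for these 4 ran from 0.877 to 0.962. The sign of Shh turned to 0.076 without Get1 +/+ replicate 3, that of Gli1 to -0.028 without Get1 +/+ replicate 2 and to -0.0014 without replicate 3, and that of Ptch1 to -0.057 without Get1 +/+ replicate 2.

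Among the Wnt genes all 7 tested had lower means in Get1 -/- skin, with a median difference of -0.20, and 0 passed. Wnt10a, a ligand of the placode and matrix, read 521, 529 and 735 against 512, 458 and 380.5. The genotypes did not overlap, but the gap between Get1 +/+ replicate 1 and Get1 -/- replicate 1 was small against the spread (-0.39 ± 0.20, interval -0.85 to 0.056, adjusted p = 0.636). Its value was -0.23 without Get1 +/+ replicate 3. Wnt10b, a ligand expressed early in placodes, was dim and read 184, 225 and 118 against 148, 138 and 138. Here Get1 +/+ replicate 3 was the lowest of all 6 arrays, and the Get1 -/- values lay inside the Get1 +/+ range (-0.26 ± 0.29). Without that array the difference was -0.52, and without Get1 +/+ replicate 2 it was -0.057.

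Ctnnb1, which encodes beta-catenin, the transducer of Wnt signals and a component of adherens junctions, read 19418, 20652 and 19696 in Get1 +/+ and 17754, 17574 and 17962 in Get1 -/- skin. All 3 Get1 -/- values were below all Get1 +/+ values, by a small amount with a narrow interval (-0.17 ± 0.094, interval -0.38 to 0.046, adjusted p = 0.672). Lef1, the nuclear partner of beta-catenin in follicle matrix and papilla, read 1163, 1351 and 1520.5 against 1221, 1059.8 and 1061. Get1 +/+ replicate 1 lay among the Get1 -/- values (-0.27 ± 0.16, adjusted p = 0.692). The other kept Lef1 probe set, which was not tested alone, read 387, 412 and 408 against 314, 300 and 280 with no overlap (-0.43). Axin2, a feedback target that reports Wnt activity, read 898, 1148 and 1157 against 946, 917 and 913 (-0.20 ± 0.16, adjusted p = 0.788). The 3 Get1 -/- values were close together, and Get1 +/+ replicate 1 lay below all of them.

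Among inhibitors of the pathway, the secreted antagonist Dkk1 had means of 369 ± 112 and 346 ± 70.5 (-0.072 ± 0.26), and the sign turned without Get1 +/+ replicate 2 (0.17) or Get1 -/- replicate 1 (0.11). Sostdc1, which binds both Bmp ligands and Wnt co-receptors, had means of 2606 ± 254 and 2506 ± 237 (-0.056 ± 0.14), and the sign turned without replicate 3 of Get1 +/+ (0.021) or of Get1 -/- (0.0024). The other kept Sostdc1 probe set differed by -0.27. Dkk4, a Wnt target and antagonist of the placode, did not reach the filter and was not tested, with 97.3, 43.3 and 88.3 against 63.2, 43.8 and 97.

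The Eda genes, whose loss causes ectodermal dysplasia, had higher means in Get1 -/- skin for all 3 members, with 0 passing and a median of 0.13. The ligand Eda had means of 252 ± 39.8 and 259 ± 23.5 (0.045 ± 0.21). The receptor Edar read 349.6, 266 and 333 against 358, 469 and 312, with Get1 -/- replicate 2 the highest and Get1 -/- replicate 3 inside the Get1 +/+ range (0.25 ± 0.22, interval -0.23 to 0.74, adjusted p = 0.8). The adaptor Edaradd read 802, 553 and 1035 against 898, 753 and 894, and its whole range came from Get1 +/+ replicates 2 and 3 (0.13 ± 0.23). Without Get1 +/+ replicate 2 the median of the 3 genes was -0.093, Eda turned to -0.093 and Edaradd to -0.11. Eda also turned to -0.023 without Get1 -/- replicate 2. A second Edar probe set, below the filter and not tested, read 33.2, 23.3 and 17.1 against 1.24, 0.97 and 0.99, values near the bottom of the scale. Edar is the one member whose upstream sequence held the Tcf/Lef motif searched, and the 250 bases before its start are shown for that reason, with the motif in capitals (RefSeq, GRCm38.p6, chr10:58675697-58675946, minus strand, 5′ to 3′).
Edar: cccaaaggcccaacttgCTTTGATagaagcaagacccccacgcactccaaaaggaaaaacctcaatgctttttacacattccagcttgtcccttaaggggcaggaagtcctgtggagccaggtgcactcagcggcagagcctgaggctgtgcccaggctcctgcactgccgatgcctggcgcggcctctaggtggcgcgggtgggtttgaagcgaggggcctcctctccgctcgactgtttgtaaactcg
Promoters of 22 of the 36 members were in the RefSeq table, in 27 windows. The motif CTTTGAT, read on both strands, was in 1 of these 27 windows, beginning 233 bases before the start of Edar, and in 3.21% of all 32851 windows of this length. The Gli motif GACCACCCA and the grainyhead motif AACCGGTT were in 0 of the 27, and in 0.225% and 0.116% of all windows.

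Of the Bmp members, Bmp4, a ligand of the dermal condensate and papilla, read 1240.0, 1385 and 1141 in Get1 +/+ and 1087, 985 and 976 in Get1 -/- skin. All 3 Get1 -/- values were below all Get1 +/+ values (-0.30 ± 0.15, interval -0.64 to 0.032, adjusted p = 0.63). Bmp2, a ligand of the follicle epithelium, read 886, 1413 and 611 against 1527, 739.7 and 734, so that the highest array of each genotype stood well above its others and the difference was 0.039 ± 0.35 (interval -0.76 to 0.83). It turned to -0.25 without Get1 +/+ replicate 3 and to -0.31 without Get1 -/- replicate 1. Bambi, a pseudoreceptor that dampens Bmp signals, read 239, 671 and 521 against 345, 394 and 274. Get1 +/+ replicate 1 was the lowest of the 6 arrays, and the difference of -0.39 ± 0.35 became -0.82 without it and -0.079 without Get1 +/+ replicate 2.

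Bmp7, a further ligand of epithelium and dermis, gave different answers by probe set. Its brightest probe set was nearly constant, with 1076, 1044 and 1004 against 1023, 1022 and 1037 (-0.019 ± 0.14). A dimmer one read 827, 948 and 899 against 677, 718 and 803 (-0.28), and the dimmest read 727, 860.0 and 782 against 474, 510.0 and 466 (-0.71). In both of these dimmer probe sets every Get1 -/- value lay below every Get1 +/+ value, and neither was tested alone. Nog, which encodes the Bmp antagonist noggin, did not reach the filter and ranged from 15.5 to 103 in Get1 +/+ skin alone.

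Fgf7, the keratinocyte growth factor made by dermal cells, was the one member of the Fgf pathway that was tested. It was dim, with a mean log2 signal above that of only 12.7% of the genes tested. It read 231, 188 and 186 in Get1 +/+ and 276, 277 and 352 in Get1 -/- skin, with all Get1 -/- values above all Get1 +/+ values. The difference was 0.58 ± 0.21 (interval 0.10 to 1.05), and the adjusted p of 0.578 missed the threshold. Its other kept probe set read 192, 155 and 91.9 against 241, 288 and 231, again with no overlap (0.85). Over the 6 fits that left out 1 array each, the difference of Fgf7 lay between 0.46 and 0.68. Summed signals of 9 dermal fibroblast markers ran from 146865 to 183550.0 in Get1 +/+ and from 157731 to 183324 in Get1 -/- skin. Those of 8 endothelial markers ran from 5493 to 6097 in Get1 +/+ and from 6101 to 7464 in Get1 -/- skin, narrowly without overlap. Of these 8 markers 7 had higher means in Get1 -/- skin and 0 passed (median 0.20). The part of other cell types in the Fgf7 difference was not tested. Fgf10, a dermal ligand for the same epithelial receptor, and Fgf5, which ends hair growth in later cycles, did not reach the filter. Fgf10 read 95.6, 126 and 69.2 against 88.8, 108 and 106, and Fgf5 lay between 3.88 and 34.9 on all 6 arrays.

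**Figure D2:**
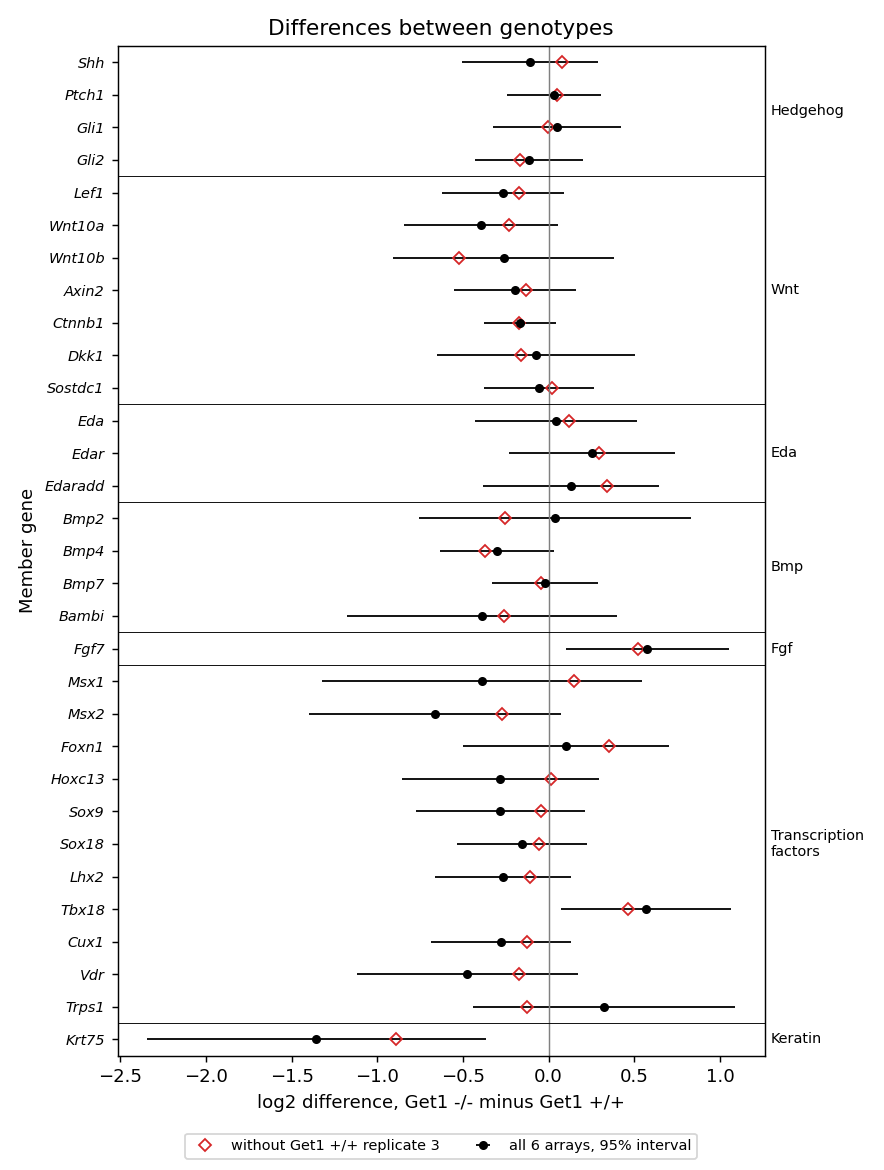
Differences between genotypes on the log2 scale for the 31 tested genes, with black points and 95% intervals from all 6 arrays and red diamonds for the fit without Get1 +/+ replicate 3. The intervals of Krt75, Fgf7 and Tbx18 exclude 0 before adjustment, and the diamond of Krt75 lies at -0.89 against -1.36 with all arrays.

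Among the transcription factors, 8 of 11 tested had lower means in Get1 -/- skin, with a median of -0.28, or -0.053 without Get1 +/+ replicate 3, and 0 passing. Those of the hair matrix and shaft were highest on Get1 +/+ replicate 3. Msx2, a homeodomain factor needed for shaft differentiation, read 324, 477 and 885 in Get1 +/+ and 369, 333 and 282 in Get1 -/- skin. Get1 +/+ replicates 2 and 3 lay above all Get1 -/- values and replicate 1 among them (-0.66 ± 0.33, interval -1.40 to 0.074, adjusted p = 0.632). Without Get1 +/+ replicate 3 the difference was -0.27. Its relative Msx1 read 163, 234 and 595 against 188, 242 and 223, and the difference of -0.39 ± 0.42 turned to 0.15 without that array. Hoxc13, an activator of hair keratin genes, read 324, 303 and 582 against 323, 308 and 320.4. The other 5 arrays lay between 303 and 324, and without Get1 +/+ replicate 3 its difference turned from -0.28 ± 0.26 to 0.017.

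Vdr, the vitamin D receptor, which later hair cycling requires, read 358, 526 and 813 against 467, 351 and 349 (-0.47 ± 0.29, adjusted p = 0.696). The difference was -0.17 without Get1 +/+ replicate 3 and -0.76 without Get1 +/+ replicate 1. The other kept Vdr probe set read 477, 582 and 565 against 509, 349 and 273 (-0.56), and there Get1 +/+ replicate 2 was the highest array. Cux1, a factor of the inner root sheath, read 1168, 1234 and 1649 against 1209, 958 and 1151, with Get1 +/+ replicate 3 again the highest (-0.28 ± 0.18, or -0.13 without it). Foxn1, the gene mutated in nude mice, read 172, 187 and 300.1 against 242, 192 and 258. Its difference was 0.10 ± 0.27, it became 0.35 without Get1 +/+ replicate 3 and -0.050 without Get1 +/+ replicate 1.

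Factors of the placode and early bud were also highest on Get1 +/+ replicate 3. Sox9, needed for the stem cell and outer sheath lineage, read 461, 468 and 757 against 458, 478 and 416. Of the 6 arrays only Get1 +/+ replicate 3 stood apart, and the difference was -0.28 ± 0.22 with it and -0.046 without it. Lhx2, a LIM factor of bud and stem cells, read 2329.6, 2595 and 3426 against 2524, 2032 and 2326 (-0.27 ± 0.18, or -0.11 without Get1 +/+ replicate 3). The adjusted p was 0.778 for Sox9 and 0.732 for Lhx2.

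Factors of the dermal side were highest on different arrays. Tbx18, a T-box factor of the dermal condensate, read 593, 367 and 377 in Get1 +/+ and 582, 751 and 613 in Get1 -/- skin. Get1 +/+ replicates 2 and 3 were low and replicate 1 lay just above Get1 -/- replicate 1 (0.57 ± 0.22, interval 0.071 to 1.07, adjusted p = 0.586). Its other kept probe set differed by 0.20. Trps1, a zinc finger repressor of dermal papilla and follicle epithelium, read 4084, 3482 and 1485 against 4257, 2829 and 3432. Get1 +/+ replicate 3 was the lowest of the 6 arrays, the reverse of its place among the matrix genes. Without it the difference turned from 0.32 ± 0.34 to -0.13. A second Trps1 probe set read 3295, 2160 and 2818 against 4058, 3032 and 3220 (0.33), and there Get1 +/+ replicate 2 was the lowest. Sox18, of papilla and vessels, read 3077, 2263 and 3251 against 2438, 2409.8 and 2800.1 (-0.15 ± 0.17). Its value was -0.053 without Get1 +/+ replicate 3 and -0.31 without Get1 +/+ replicate 2. Alx4, a homeodomain factor of the mesenchyme, did not reach the filter, with 120.1, 99.6 and 82.4 against 97.4, 75.5 and 115. In a list of condensate and papilla markers, 10 tested genes were not members, of which 6 had higher and 4 lower means in Get1 -/- skin and 0 passed (median 0.16).

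Krt75, the type II keratin of the companion layer between inner and outer root sheath, had the largest difference of the 31. It read 286, 569.7 and 1055 in Get1 +/+ and 305, 225 and 149.7 in Get1 -/- skin, or 637 ± 389 and 227 ± 77.8 (SD, n = 3). Get1 +/+ replicate 1 lay below Get1 -/- replicate 1, so that the genotypes overlapped. The difference was -1.36 ± 0.44 (interval -2.34 to -0.37), and the adjusted p of 0.567 missed the threshold. It was -0.89 without Get1 +/+ replicate 3 and -1.83 without Get1 +/+ replicate 1. The 250 bases before its start are shown because of this difference and because they hold the letters AACCGGT, in capitals, which are the first 7 of the 8 of the grainyhead motif (RefSeq, GRCm38.p6, chr15:101573905-101574154, minus strand, 5′ to 3′).
Krt75: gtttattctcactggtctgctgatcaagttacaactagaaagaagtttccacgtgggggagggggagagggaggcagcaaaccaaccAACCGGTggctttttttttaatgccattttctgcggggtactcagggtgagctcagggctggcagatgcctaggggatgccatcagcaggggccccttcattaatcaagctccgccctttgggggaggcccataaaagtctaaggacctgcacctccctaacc
This shorter motif was searched after these sequences had been read. On both strands it was in 2 of the 27 member windows, those of Krt75 and Cux1, and in 0.831% of all windows. A match describes the sequence and shows no binding.

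**Figure D3:**
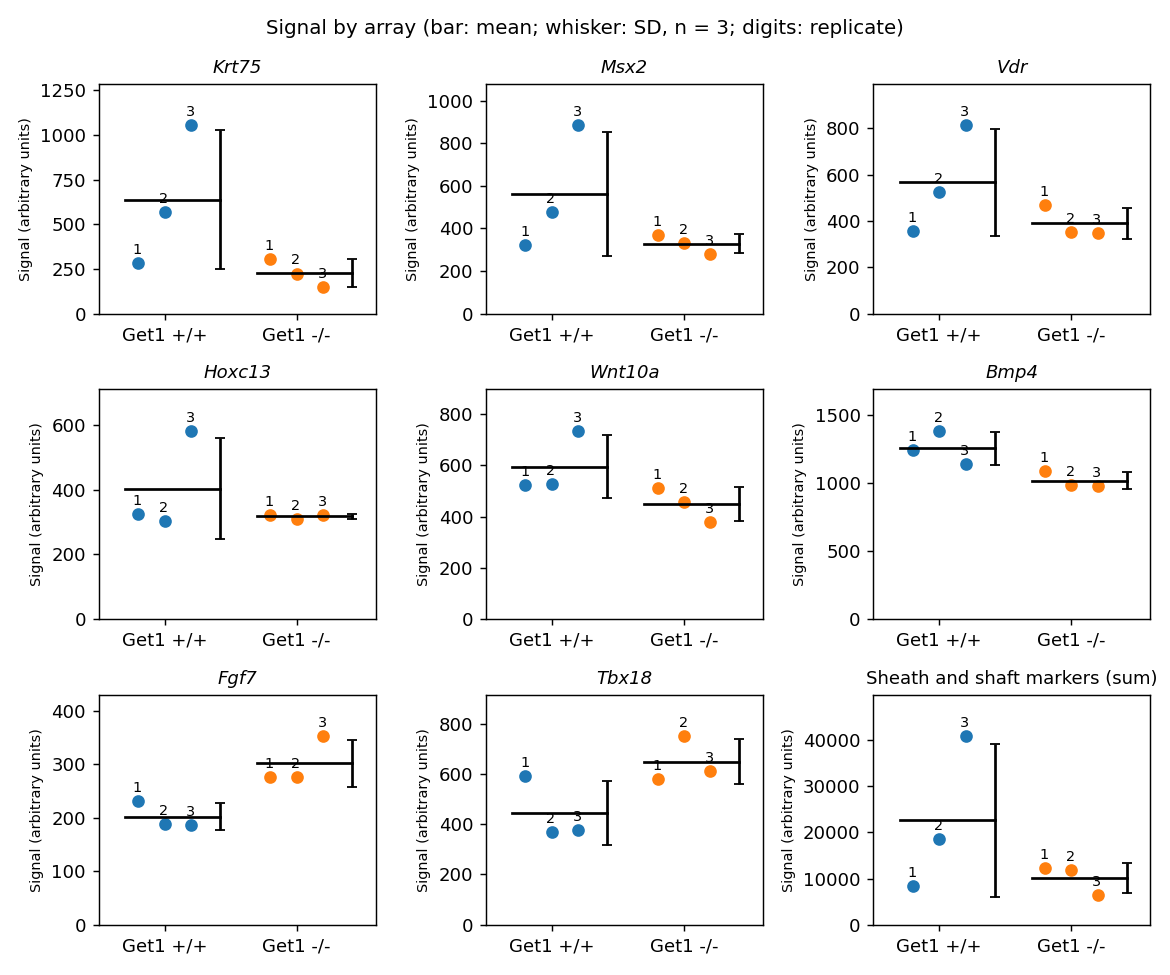
Array signal in arbitrary units for 8 of the genes and, in the last panel, the summed signal of 16 sheath and shaft markers, for the 3 Get1 +/+ and 3 Get1 -/- mice, with bars for the mean and whiskers for the SD. Get1 +/+ replicate 3 is the highest in the panels of Krt75, Msx2, Vdr, Hoxc13, Wnt10a and the summed markers, and not in those of Bmp4, Fgf7 and Tbx18.

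Get1 +/+ replicate 3 was the highest of the 6 arrays for 16 of the 31 members (51.6%), against 29.5% of all genes tested. Of these 16, 14 had lower means in Get1 -/- skin, and 10 of the 14 kept that direction without this array. A high Get1 +/+ array raises the Get1 +/+ mean, so the 14 follow in part from how the 16 were picked. The share with lower means among all genes highest on this array was not counted. The spread between mice of a genotype was larger in Get1 +/+ skin for 28 of the 31, with a median SD on the log2 scale of 0.29 against 0.16, while over all genes it was larger in Get1 +/+ skin for 62.9%, with medians of 0.24 and 0.18. The keratins and other structural genes of sheath and shaft varied in the same way. The summed signal of 16 such markers was 8442, 18571 and 40898 in Get1 +/+ and 12193, 11936 and 6356 in Get1 -/- skin. All 11 tested markers of this list were highest on Get1 +/+ replicate 3 and had lower means in Get1 -/- skin, with a median of -1.01, or -0.40 without that array, and 0 of 11 passed. Without it 9 of the 11 were still lower. 

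Markers of other cell types in the skin also differed between the arrays. For the 9 basal keratinocyte markers the summed signal ran from 63026 to 76222 in Get1 +/+ and from 62488 to 64937 in Get1 -/- skin, and 8 of 9 had lower means in Get1 -/- skin. All 10 suprabasal keratinocyte markers had lower means (median -0.47, or -0.19 without Get1 -/- replicate 1), and their sums did not overlap, from 174564 to 186724 in Get1 +/+ and from 123625 to 165958 in Get1 -/- skin. Of these 10, Krt77, a suprabasal keratin of the epidermis, was the one that passed, at -2.51 ± 0.31 and an adjusted p of 0.0404 in limma. Krt77 read 327, 696 and 612 in Get1 +/+ and 79.6, 113 and 84.2 in Get1 -/- skin. All of its Get1 -/- values lay below the filter signal of 137, so it was tested only because of its Get1 +/+ values. Without 1 array its adjusted p ran from 0.00817 to 0.372 and stayed under the threshold only without Get1 +/+ replicate 1. With all arrays its adjusted p in limma missed the threshold after quantile normalization (0.0737), with no filter (0.0714) and with the actin block (0.0976). All 10 skeletal muscle markers had higher means (median 0.34, or 0.040 with 7 of 10 higher without Get1 +/+ replicate 2), with sums from 100582 to 151758 in Get1 +/+ and from 116794 to 169835 in Get1 -/- skin. Of 10 macrophage and lymphoid markers 8 had higher means and 0 passed (median 0.36), with sums from 10729 to 15270.0 in Get1 +/+ and from 14318 to 17021 in Get1 -/- skin.

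The sums of 17 condensate and papilla markers, some of them members, ran from 25684 to 33129 in Get1 +/+ and from 31084 to 31698 in Get1 -/- skin, with 10 of 16 tested higher, or 8 of 16 without Get1 +/+ replicate 3. Those of 7 adipocyte markers ran from 32585 to 40044 in Get1 +/+ and from 33837 to 46723 in Get1 -/- skin. Those of 8 melanocyte markers ran from 9286 to 14411 in Get1 +/+ and from 8702 to 10247 in Get1 -/- skin, and those of 5 Schwann cell and nerve markers from 3577 to 4120.0 in Get1 +/+ and from 3334 to 3890.0 in Get1 -/- skin. The genotypes overlapped in each of these 4 sums. The part of follicle content and of the other cell types in the member differences was not tested.

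The arrays also differed in the signal of the middle beta-actin control probe set, which was 19025, 19858 and 18407 on Get1 +/+ replicates 1 and 2 and Get1 -/- replicate 1, and 10906, 10118 and 13060 on Get1 +/+ replicate 3 and Get1 -/- replicates 2 and 3. The sets of high and low actin were formed on the 5 prime actin probe set. There the gap was narrower, with 21766 on Get1 -/- replicate 1 and 19782 on Get1 -/- replicate 3. Within the arrays of high actin, Krt75 differed by -0.40, Msx2 by -0.091, Vdr by 0.10, Wnt10a by -0.037, Fgf7 by 0.40 and Tbx18 by 0.32. Within those of low actin the values were -2.52, -1.53, -1.22, -0.82, 0.75 and 0.85. The sign of Vdr thus differed between the sets. The low set holds Get1 +/+ replicate 3 as its only Get1 +/+ array, so this array and the actin signal cannot be told apart there. The high set holds Get1 -/- replicate 1 as its only Get1 -/- array, so each value in either set compares 1 mouse with 2. Bmp4 (-0.27 and -0.22) and Ctnnb1 (-0.17 and -0.15) differed by similar amounts in both sets.

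Several members have more than 1 probe set. On the array 77 probe sets named a member alone, 59 of them passed the filter, and 16 members had over 1 that did. In 9 of these 16 all kept probe sets had lower means in Get1 -/- skin, among them Lef1, Axin2, Ctnnb1, Vdr and Sox9. In 3, Fgf7, Tbx18 and Trps1, all had higher means. In Ptch1, Eda, Edaradd and Cux1 they went both ways. The 3 Ptch1 probe sets differed by 0.034, 0.47 and -1.10, in order of falling signal, and the last of them read 320.2, 489 and 538 against 81.6, 447 and 235. The 8 kept Cux1 probe sets ranged from -0.77 to 0.12. For Ctnnb1 the dimmer probe sets differed by -0.27 and -0.48, further from 0 than the brightest, and with overlap between genotypes.

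**Figure D4:**
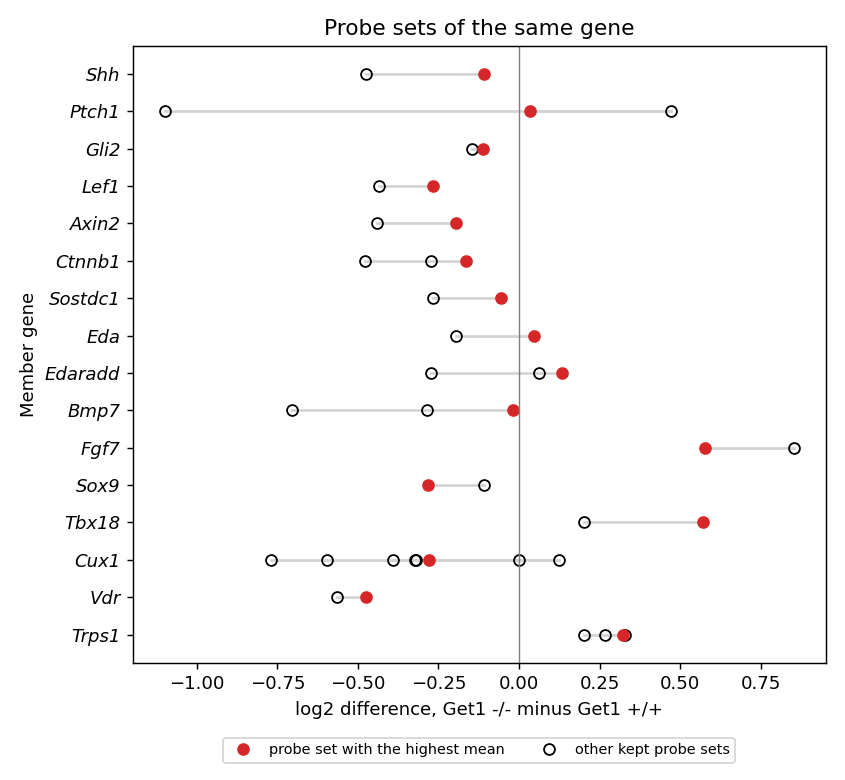
Difference between genotypes on the log2 scale for every kept probe set of the 16 genes with over 1, with the brightest probe set in red and the others as open circles. The 3 probe sets of Ptch1 span both sides of 0, and those of Fgf7, Tbx18 and Trps1 all lie above it.

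Other genes of the same pathways, listed by their function, gave 110 tested genes of 132, with 37 higher, 73 lower and 0 passing in limma (median -0.13). At an unadjusted p under 0.05, 2 had higher and 12 lower values, beside the shares of 3.89% and 4.29% of all genes given above. In the Wnt list 26 of 38 tested genes had lower means (median -0.10), and the smallest p was that of Fzd10, a Wnt receptor, with 792, 948 and 840.1 against 529.6, 558 and 501 (-0.70 ± 0.15, adjusted p = 0.308). Its genotypes did not overlap. The secreted Dickkopf family member Dkk3 differed by -0.71 ± 0.24. In the Hedgehog list 5 of 8 had lower means (median -0.18), with -0.28 ± 0.12 for the co-receptor Gas1 and 0.35 ± 0.18 for the co-receptor Cdon.

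In the Eda list 5 of 10 had lower means (median -0.020). Eda2r, the receptor of the other Eda isoform, read 135, 116 and 114 against 185, 193 and 246 with no overlap (0.77 ± 0.24, adjusted p = 0.548). All of its Get1 +/+ values lay below the filter signal of 137, so it was tested only because of its Get1 -/- values. The adaptor ligase Traf6 differed by -0.44 ± 0.20. In the Bmp list 8 of 19 had lower means (median 0.088), with -0.41 ± 0.17 for the ubiquitin ligase Smurf1 and 0.56 ± 0.24 for the receptor Acvr2a. In the Fgf list 11 of 15 had lower means (median -0.17), with -1.01 ± 0.40 for the ligand Fgf22 and 0.41 ± 0.19 for the inhibitor Spred1. In the list of further transcription factors 19 of 22 had lower means (median -0.19), with -0.60 ± 0.22 for Runx1, a factor of follicle stem cells, and -0.64 ± 0.24 for Zic1. Adjusted p for these genes other than Fzd10 ran from 0.548 for Eda2r to 0.636 for Cdon.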

How the data were processed

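The deposited values are linear signal intensities, 1 column per mouse, and MAS5 is the tool named in the submitters' processing notes, with no version and no genome build given in the sources used here. Per the labels' protocols, total RNA was copied with an oligo(dT) T7 primer and transcribed into biotin-labelled cRNA. The 2% trimmed mean rounds to 500 on every array, so no further scaling was applied. Of 45101 probe sets 64 are controls and were left out, as were those whose mean log2 intensity lay below the median, which left 22519. Of 45037 probe sets 34945 carry 1 gene symbol in the platform annotation, 932 several and 9160 none (unnamed here). The kept probe set with the highest mean stands for a gene. The comparison of genotypes used limma 3.58.1 under R 4.3.3 (lmFit, eBayes with trend, two-sided, unpaired), tested on simulated data first, with Benjamini-Hochberg adjustment over 11387 genes. Named were all members, Grhl3, and of the other pathway genes any that passed and up to 2 per list with the smallest p. The marker lists of cell types are given by their sums instead. Of their genes, Krt77 passed, and Krt25 is shown to check the tissue, chosen after its values were seen. The members and lists were chosen with earlier results of these data known. The mice of a genotype are separate animals, and 6 arrays limit the precision. Alternatives were another scaling, filter, offset, variance model or probe set rule, a block for replicate number or actin signal, and each array left out in turn.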

Additional observations from a re-analysis of the deposited data

How the results depend on the processing

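Under all 15 alternatives 0 members and 0 other pathway genes passed the threshold, and 18 of the 31 tested members kept their direction in every alternative that gave a value. With no filter all 36 members were tested, and the stricter filter left 20 of them, without Fgf7. Both genotypes' mice carry replicate numbers in the labels, with nothing said of a common litter. Between same-numbered mice, deviations from the genotype means had correlations of -0.020, 0.36 and -0.025 over genes and of 0.13, 0.26 and 0.14 over kept probe sets, with 2 and 6 of the 6 arrays closest to their own number. The pairing thus depends on the table, and the tests here use genes, where it was not taken as given. With the replicate block 12 genes passed with higher and 32 with lower values, against 3 and 2 in the unpaired fit, and 0 of them were members. The higher and lower counts were 6 and 4 with median centring, and 5 genes passed with higher values after the offset of 37.5. With quantile normalization, no filter, the stricter filter or the actin block, 1 gene passed with lower values, in each case not Krt77. Leaving out 1 array gave 3 to 98 higher and 0 to 24 lower genes, and the top of both ranges came without Get1 +/+ replicate 1. The median of all genes moved by less than 0.1 under each scaling.

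With the mean of kept probe sets the median of the Hedgehog members was -0.16, that of the Wnt members -0.30, that of the Bmp members -0.32 (from -0.16), that of the Eda members -0.027, and the differences of Ptch1, Eda and Edaradd turned to -0.20, -0.075 and -0.027. With the actin block Eda turned to -0.023 and Foxn1 to -0.00010. Over the fits without 1 array the median of the Eda members ran from -0.093 to 0.30, and 13 members changed sign at least once: Shh (-0.20 to 0.076), Ptch1 (-0.057 to 0.11), Gli1 (-0.028 to 0.18), Dkk1 (-0.22 to 0.17), Sostdc1 (-0.13 to 0.021), Eda (-0.093 to 0.12), Edaradd (-0.11 to 0.34), Bmp2 (-0.31 to 0.35), Bmp7 (-0.045 to 0.0047), Msx1 (-0.79 to 0.15), Foxn1 (-0.050 to 0.35), Hoxc13 (-0.45 to 0.017) and Trps1 (-0.13 to 0.60). The medians ran from -0.20 to -0.11 for all members, -0.052 to 0.024 for Hedgehog, -0.22 to -0.14 for Wnt, -0.33 to -0.048 for Bmp and -0.38 to -0.053 for the transcription factors. The cause of these changes was not tested.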
